A study of Sus scrofa with 18 samples.

Results

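The measurements described here answer what Bacillus subtilis did to the transcriptome of pig alveolar macrophages that were also given poly I:C. They come from 6 of the 18 libraries of the series: 3 libraries of cells given B. subtilis together with poly I:C, and 3 of cells given poly I:C alone, each for 24 hours. Members were chosen by these treatment labels, and the libraries of each group carry the pig numbers 1, 2 and 3, so that every library with the bacterium has a counterpart from the same animal. The cells came from the lungs of healthy Danish Landrace-Yorkshire pigs and were treated in culture. The other treatments used below as a setting were B. subtilis without poly I:C, Enterococcus faecium with poly I:C, and untreated control, with 3 libraries each. Bacterial strain, dose and viability were not stated in the labels used here.

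Alveolar macrophages are the resident phagocytes of the airspaces. Poly I:C, a synthetic double-stranded RNA, is read by such cells as a virus, through TLR3 in endosomes and through RIG-I and MDA5 in the cytosol, which leads to type I interferon and to the antiviral genes that interferon induces. B. subtilis is a gram-positive bacterium used as a probiotic. Its lipoproteins, peptidoglycan and nucleic acids are read by other sensors, chiefly TLR2, NOD2 and the endosomal nucleic acid receptors. These act through NF-kB on the genes of inflammatory cytokines.

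Each library was a set of read counts per gene. The 3 libraries with both agents held totals of 16346750 to 23818505 counts, and those with poly I:C alone 17537747 to 21772705 counts. Levels are in CPM (per-million counts after TMM scaling), always in the order pig 1, pig 2, pig 3. TMM factors, which correct for unequal make-up of libraries, were 0.665, 0.863 and 0.719 with both agents and 0.850, 0.926 and 0.939 with poly I:C. Of all counts, 12.8 to 17.1% fell on the 10 most abundant genes with both agents, against 10.5 to 13% with poly I:C.

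The libraries fitted the cell type named by the labels, since 10 of 10 macrophage genes examined were detected in all 6. CD163, the haemoglobin scavenger receptor, had 189.9, 82.6 and 91.4 CPM with both agents and 252, 113 and 105 CPM with poly I:C. MARCO, a scavenger receptor typical of alveolar macrophages, had 101, 6.61 and 189 CPM with both agents and 61.8, 7.67 and 78.3 CPM with poly I:C, so that pig 2 was low in both groups. In whole cultures, fewer cells of a type and less RNA per cell cannot be told apart.

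One library stood apart from its group. In pig 2, the library with both agents lay close to the poly I:C library of the same animal: of 11392 genes with a mean of at least 1 CPM, 78 were at least 2-fold higher and 92 at least 2-fold lower with both agents. In pig 1 the corresponding numbers were 582 and 730, and in pig 3 they were 1121 and 1456. Whether this library received the bacterium as its label says was not tested, and every count over 3 pigs below includes it. Levels are given pig by pig for the genes described in full, and the calls made without this library are gathered in paragraphs of their own.

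Across all 13592 genes tested, 0 passed an adjusted p of 0.05 (0% of genes; edgeR's quasi-likelihood test, two-sided, Benjamini-Hochberg), and the smallest adjusted p was 0.447. At an unadjusted p under 0.05 there were 1422 genes, or 10.5%, of which 801 (5.89%) were higher and 621 (4.57%) lower with both agents. Counted by direction alone, 2238 genes (16.5%) were higher and 2776 (20.4%) lower in each of the 3 pigs; with scaling by library totals alone these were 810 (5.96%) and 5398 (39.7%), and the median log2 difference of all genes was -0.30, against -0.04 with TMM. DESeq2 also called 0 genes, with 1674 at an unadjusted p under 0.05. Without the pig 2 library of the group with both agents, 2086 genes passed, or 15.1% of those tested, 913 of them higher (6.6%) and 1173 lower (8.48%). Leaving out both libraries of pig 2 gave 813 genes, or 5.89%, with 264 higher (1.91%) and 549 lower (3.98%). Leaving out any other library or pig gave 0.

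Inflammatory cytokine genes lay above their poly I:C levels in each pig more often than genes at large. Of 33 listed cytokine genes, 29 had enough counts to be tested. Of these, 20 were higher with both agents in each of the 3 pigs, where 16.5% of all tested genes were, and 2 were lower in each, where 20.4% of all were. For 8 of the 29, all 3 libraries with both agents lay above all 3 with poly I:C, which held for 2.63% of all genes. The median log2 difference over the list was 1.07, against -0.04 over all genes, and within pigs 1, 2 and 3 it was 1.54, 0.45 and 1.59. None of the 29 passed the adjusted threshold in the fit to all libraries.

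TNF, the early inflammatory cytokine of activated macrophages (gene ID 397086, chromosome 7, 23699635 to 23702393 in Sscrofa11.1), had 5128, 3156 and 6390.3 CPM with B. subtilis and poly I:C, against 958, 1706 and 1418 CPM with poly I:C. The groups did not overlap, and pig 2 had both the lowest level with both agents and the highest with poly I:C. Its log2 difference was 1.85 ± 0.87 (SE; n = 3 per group here and throughout), with an adjusted p of 0.477 by edgeR.

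Chains of the interleukin 12 family showed the same order. IL23A, the chain that makes IL-23 (gene ID 100155546, chromosome 5, 21732416 to 21733981), had 896, 1204 and 1579.5 CPM with both agents and 225, 514 and 254 CPM with poly I:C, a log2 difference of 1.89 ± 0.84 (adjusted p 0.451, edgeR). EBI3, which pairs with IL27 to form IL-27 (gene ID 100522599, chromosome 2, 74530728 to 74540433), had 320.2, 124 and 495 CPM with both agents and 64.2, 90.9 and 95.6 CPM with poly I:C, and its log2 difference was 1.90 ± 0.50 (adjusted p 0.447, edgeR). Its partner IL27 had 1896, 1898 and 4087 CPM with both agents and 653, 1307 and 1065 CPM with poly I:C. The groups were apart for all of IL23A, EBI3 and IL27, and in EBI3 the gap in pig 2 was the narrowest. IL12B, the chain shared by IL-12 and IL-23, was scarce, with 4.79, 2.24 and 60.7 CPM with both agents and 0.201, 0.594 and 4.80 CPM with poly I:C, and 1 library of pig 3 held most of it. IL12A was higher in 2 of 3 pigs, with 10.3, 15.5 and 25.6 CPM with both agents and 2.55, 16.3 and 9.44 CPM with poly I:C.

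The interleukin 1 genes and IL6 already stood high in pig 2 with poly I:C alone. IL1B, the central secreted pyrogen, had 10729, 15874 and 17972 CPM with both agents and 3223, 11536 and 4783 CPM with poly I:C; a near-identical copy exists in the pig genome, so its counts are uncertain. IL1A had 4304, 7524 and 5271 CPM with both agents and 2113, 5604 and 2552 CPM with poly I:C. IL6, which drives the acute phase response, had 8.47, 37.6 and 25.9 CPM with both agents and 1.01, 24.6 and 3.03 CPM with poly I:C. In each of these, all 3 pigs were higher with both agents, but the groups overlapped, since the poly I:C library of pig 2 lay above or near the lower libraries with both agents.

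Growth factors of the same class followed suit. CSF3, the granulocyte growth factor, had 2789.5, 3866 and 3295 CPM with both agents, against 649, 2415 and 650.3 CPM with poly I:C, and INHBA, which encodes activin A, had 112, 218 and 225 CPM with both agents, against 24.5, 89.8 and 49.6 CPM with poly I:C. Neither pair of groups overlapped. CSF2, LIF and OSM were higher in each of the 3 pigs but overlapped between groups. For LIF, a cytokine of the IL-6 family, the levels were 10.1, 53.3 and 30.7 CPM with both agents and 1.07, 22.9 and 5.87 CPM with poly I:C. Only 2 of the 29 genes were lower in each pig, the death ligand TNFSF10 and the B cell survival factor TNFSF13B; TNFSF10 had 955, 1119 and 1172 CPM with both agents and 1289.5, 1187 and 1736 CPM with poly I:C. The examples INHBA, LIF, TNFSF10 and TNFSF13B were picked from the list after their values were seen.

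**Figure D1:**
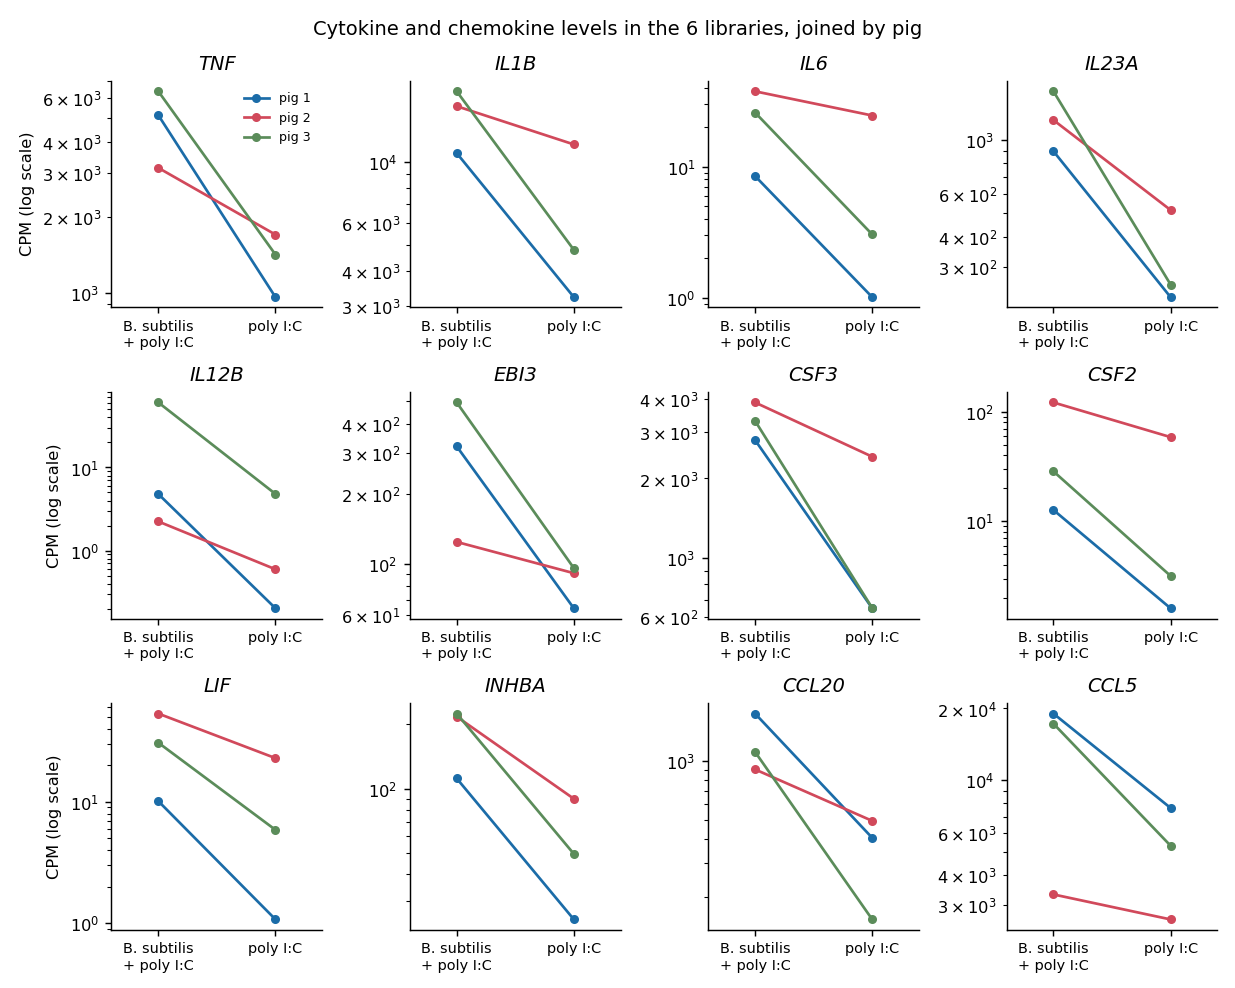
Levels of 12 cytokine and chemokine genes in CPM, on log axes that differ between panels, with B. subtilis and poly I:C at the left and poly I:C at the right; each line joins the libraries of 1 pig. All 12 genes shown are higher on the left in each of the 3 pigs, and for IL1B, EBI3 and CCL5 among others the line of pig 2 is the flattest. The 12 leave out genes without a shared direction, such as IL12A and CCL2. Of all tested members, 20 of 29 cytokine genes and 8 of 23 chemokine genes were higher in each pig.

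Chemokines were less uniform. Of 31 listed, 23 were tested, and 8 were higher in each pig and 1 was lower in each (all genes: 16.5% and 20.4%). For 3 the groups were apart, all above (all genes: 2.63%). With library totals alone 6 were higher and 4 lower in each pig (all genes: 5.96% and 39.7%). CCL20, which draws CCR6-bearing cells, had 1744, 903 and 1110.0 CPM with both agents and 403, 493 and 154 CPM with poly I:C, a log2 difference of 1.84 ± 0.82 (adjusted p 0.451, edgeR). CCL3L1 and CCL4, which attract monocytes and T cells, were the other 2 whose groups did not overlap; CCL3L1 belongs to a family of near-identical copies, so its counts are uncertain. CCL4 had 1565, 1553 and 1586 CPM with both agents and 762, 1017 and 711 CPM with poly I:C. CCL5, an attractant of T cells, had 19037, 3328 and 17279 CPM with both agents and 7661, 2615 and 5324 CPM with poly I:C, so that pigs 1 and 3 were well apart between groups and pig 2 was low in both. For the neutrophil attractants, CXCL8 had 19803, 36228 and 26506 CPM with both agents and 15952, 31629.6 and 19236 CPM with poly I:C, and CXCL2 had 5784, 11199 and 10589.6 CPM with both agents and 1975, 8339 and 3528 CPM with poly I:C. Both were higher in each pig, with overlapping groups. The monocyte attractant CCL2 had 702, 1154 and 620.4 CPM with both agents and 582, 1665 and 652 CPM with poly I:C, with no shared direction among pigs.

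Genes induced by interferon, the arm that poly I:C itself addresses, were more often lower than higher, as were genes at large. Of 61 tested interferon-stimulated genes, 12 were higher and 18 lower in each pig (19.7% and 29.5%), beside 16.5% and 20.4% of all genes. With library totals alone, 4 were higher and 37 lower in each pig (6.56% and 60.7%), beside 5.96% and 39.7% of all genes. The summed level of the list went the other way in pigs 1 and 3. It was 105091, 59019 and 90173 CPM with both agents and 80546, 60449 and 79884 CPM with poly I:C. The single gene ISG15 made up most of this rise in pig 1, with 37999.8 CPM with both agents and 15364 CPM with poly I:C. In pig 3 ISG15 had 23535 and 7572 CPM, a larger rise than that of the whole sum. The median log2 difference of the list was -0.12 (all genes: -0.04), and within pigs 1, 2 and 3 it was -0.09, -0.03 and -0.18. MX1, an antiviral GTPase, had 3757, 3426 and 3693 CPM with both agents and 4613, 3681 and 4293 CPM with poly I:C, a log2 difference of -0.21 ± 0.54 (adjusted p 0.917, edgeR). RSAD2, which encodes viperin, had 1572, 5280.1 and 4225 CPM with both agents and 3551, 5399.9 and 10414 CPM with poly I:C. The interferon-induced chemokine CXCL10 had 8197, 3550.2 and 7339.9 CPM with both agents and 8621, 5124 and 6367 CPM with poly I:C. None of these 3 passed, with or without the pig number as a block. Within pigs 1, 2 and 3 the log2 difference of MX1 was -0.30, -0.10 and -0.22 and that of RSAD2 -1.18, -0.03 and -1.30, so that both were lower in each pig.

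Single members of the interferon list went either way. ISG15, a ubiquitin-like modifier, had 37999.8, 6408 and 23535 CPM with both agents and 15364, 5865 and 7572 CPM with poly I:C, higher in each pig but overlapping. Of the 61 genes, 3 had all libraries below and 2 all libraries above, near the shares of all genes (4.88% and 2.63%). TDRD7 and TNFSF10 were among those below. TRIM21 and BST2 were those above. TDRD7, TRIM21 and BST2 were picked from the list after their values were seen.

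IFNB1, a type I interferon made early after RNA sensing, was higher with both agents in each pig. Its levels were 31.2, 48.4 and 37.9 CPM with both agents and 6.98, 30.8 and 9.20 CPM with poly I:C; the groups did not overlap, by the narrow margin between pig 1 with both agents and pig 2 with poly I:C. The log2 difference was 1.32 ± 0.83 (adjusted p 0.591, edgeR). IFNG was near the limit of detection in both groups, with 2.12, 1.70 and 4.11 CPM with both agents and 0.805, 1.19 and 0.93 CPM with poly I:C.

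Sensors were more often lower than higher, as were genes at large. Of 34 tested genes for bacterial and RNA sensors and their adaptors, 4 were higher in each pig and 10 lower in each (11.8% and 29.4%). Of all genes 16.5% were higher and 20.4% lower. With library totals alone, 1 was higher and 14 lower in each pig (2.94% and 41.2%), near the 5.96% and 39.7% of all genes. With TMM the median log2 difference of the list was 0.01. For 4 genes all libraries with both agents lay below all with poly I:C, which held for 4.88% of all genes. TLR7, the endosomal receptor for single-stranded RNA (gene ID 100037296, chromosome X, 9573178 to 9576987), had 12.6, 22.9 and 10.3 CPM with both agents and 34.9, 34.4 and 45.8 CPM with poly I:C, a log2 difference of -1.32 ± 0.34 (adjusted p 0.447, edgeR). With B. subtilis alone TLR7 had 11.9, 6.18 and 8.09 CPM, against 37.7, 42.7 and 32.9 CPM in control. Its relative TLR8 had 4.79, 6.08 and 3.88 CPM with both agents and 8.52, 9.07 and 12.4 CPM with poly I:C. MYD88, the adaptor of most Toll-like receptors, had 9.67, 47.7 and 13.6 CPM with both agents and 49.8, 53.0 and 71.7 CPM with poly I:C, so that the groups did not overlap, with wide gaps in pigs 1 and 3 and a small one in pig 2. MAVS, the mitochondrial adaptor of RIG-I and MDA5, had 23.9, 21.8 and 23.1 CPM with both agents and 37.3, 28.2 and 35.6 CPM with poly I:C. MYD88 and MAVS were picked after their values were seen.

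The receptors most tied to gram-positive bacteria and to poly I:C were mixed. TLR2, which reads bacterial lipoproteins, had 442, 529 and 464 CPM with both agents and 360.3, 537 and 374 CPM with poly I:C. NOD2, a cytosolic peptidoglycan sensor, had 28.4, 114 and 65.2 CPM with both agents and 65.2, 79.7 and 126 CPM with poly I:C, lower in pigs 1 and 3 and higher in pig 2. TLR3 was scarce and lower in each pig, with 1.93, 11.0 and 2.13 CPM with both agents and 4.36, 13.2 and 9.83 CPM with poly I:C. IFIH1, which encodes MDA5, had 568, 689 and 643 CPM with both agents and 604, 704 and 796 CPM with poly I:C. CD14, CLEC4E and TLR9 were each higher in some pigs and lower in others.

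Genes of the NF-kB pathway and its brakes were more often higher than lower. Of 32 tested, 16 were higher in each pig (50% of the list) and 2 lower in each, beside 16.5% and 20.4% of all genes. The median log2 difference was 0.26, with 0.21, 0.27 and 0.35 within pigs 1, 2 and 3. With library totals alone it was -0.01, and 10 genes were higher and 4 lower in each pig (all genes: 5.96% and 39.7%). All 6 genes whose groups were apart lay above (all genes: 2.63% above and 4.88% below). IER3, an early survival gene under NF-kB control, had 902, 1284 and 1168 CPM with both agents and 336, 688 and 382 CPM with poly I:C. NFKB2, the precursor of p52, had 1274, 792 and 1662 CPM with both agents and 623, 553 and 674 CPM with poly I:C. The inhibitor NFKBIE, the adaptor TRAF1 and the genes TNIP3 and TNFAIP8 were the other 4. These 6 were picked after their values were seen.

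The best known brakes were not among them. NFKBIA, which holds NF-kB in the cytosol, had 969.7, 1373 and 1095 CPM with both agents and 1005, 1156 and 854 CPM with poly I:C, and TNFAIP3, which encodes A20, had 272, 814 and 428 CPM with both agents and 381, 642 and 790.3 CPM with poly I:C. SOCS1, the brake on interferon receptors, had 171, 146 and 165 CPM with both agents and 188, 166 and 152 CPM with poly I:C. Each of these overlapped with no common direction. SOCS3, the brake on IL-6 type receptors, was higher in each pig, with 918, 1461 and 1423 CPM with both agents and 389.6, 1065 and 566 CPM with poly I:C. It belongs to a list of 34 tested anti-inflammatory and regulatory genes, of which 19 were higher and 4 lower in each pig (all genes: 16.5% and 20.4%). With library totals alone these were 12 and 10, or 35.3% and 29.4% (all genes: 5.96% and 39.7%). The anti-inflammatory cytokine IL10 had 4.51, 10.4 and 9.13 CPM with both agents and 2.62, 9.72 and 3.23 CPM with poly I:C.

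Of 20 immediate early genes, 10 were higher in each pig and 1 was lower (all genes: 16.5% and 20.4%), and for 7 the groups were apart, all above (all genes: 2.63%). With library totals alone 4 were higher and 2 lower in each pig (all genes: 5.96% and 39.7%). Then 2 were apart, both above (all genes: 121 of 13592 above). The median log2 difference was 0.38, and -0.01 without the pig 2 library of the group with both agents. JUNB had 846, 908 and 989 CPM with both agents and 685, 659 and 685 CPM with poly I:C. ATF3, a stress-induced repressor of cytokine genes, had 196, 111 and 242 CPM with both agents and 97.4, 76.9 and 107 CPM with poly I:C, and PLAUR, the urokinase receptor, had 709, 509 and 529.6 CPM with both agents and 334, 393 and 259 CPM with poly I:C. JUNB, ATF3 and PLAUR, picked after their values were seen, were higher in pig 2 as in the other pigs.

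The unfolded protein response raises chaperones when the endoplasmic reticulum is loaded with proteins to be secreted. Among 25 of its genes, 15 were higher in each pig (60%) and 0 lower in each, beside 16.5% and 20.4% of all genes. For 8 all libraries with both agents lay above, which held for 2.63% of all genes. The median log2 difference was 0.32, with 0.20, 0.29 and 0.52 within pigs 1, 2 and 3. With library totals alone it was 0.06, and 9 genes were higher and 3 lower in each pig (all genes: 5.96% and 39.7%). SDF2L1, a partner of the endoplasmic reticulum chaperone BiP (gene ID 100156780, chromosome 14, 50249607 to 50251636), had 60.8, 25.8 and 49.2 CPM with both agents and 24.4, 15.7 and 14.8 CPM with poly I:C, a log2 difference of 1.30 ± 0.29 (adjusted p 0.447, edgeR). MANF, a secreted protein made under such stress, had 131, 124 and 168 CPM with both agents and 62.9, 88.9 and 51.4 CPM with poly I:C. PPP1R15A, which restores translation after stress, had 351, 386 and 477 CPM with both agents and 169, 200 and 182 CPM with poly I:C. HSPA5, which encodes BiP itself, had 557, 1692 and 928 CPM with both agents and 523, 995 and 673 CPM with poly I:C, with the widest gap in pig 2. The sensor ERN1 had 8.56, 36.3 and 12.7 CPM with both agents and 14.5, 34.3 and 32.3 CPM with poly I:C, lower in pigs 1 and 3. PPP1R15A, HSPA5 and ERN1 were picked after their values were seen.

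Since 0 genes passed, the 12 genes with the smallest unadjusted p in each direction were named, among annotated genes with the same direction in all pigs. The adjusted p of each of these 24 was 0.447, and their values describe the top of a ranking. Of the 12 higher genes, SDF2L1, MANF and CRELD2 belong to the unfolded protein response list. CRELD2, a resident of the endoplasmic reticulum, had 75.8, 43.1 and 79.3 CPM with both agents and 38.0, 34.8 and 32.5 CPM with poly I:C. SEC61G, a subunit of the channel through which new proteins enter that compartment, had 235, 86.8 and 209 CPM with both agents and 89.7, 81.0 and 54.4 CPM with poly I:C. FKBP2, a prolyl isomerase there, had 135, 48.8 and 114 CPM with both agents and 62.1, 41.8 and 34.3 CPM with poly I:C. In SEC61G and FKBP2 the pig 2 library with both agents lay inside the range of the poly I:C libraries.

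Among the other 7 higher genes, C2H11orf96 had the highest log2 difference of the 12, 1.66 ± 0.40, with 1092, 702 and 1417 CPM with both agents and 393, 320.3 and 303 CPM with poly I:C. MCEMP1, a membrane protein of myeloid and mast cells, had 281, 147 and 249 CPM with both agents and 93.2, 134 and 55.4 CPM with poly I:C. RASSF1, a Ras-binding growth suppressor, had 77.4, 66.1 and 97.6 CPM with both agents and 48.9, 43.5 and 48.8 CPM with poly I:C. The proton pump subunit ATP6V1C2, the splicing factor BCAS2, PDLIM2, which targets the RELA subunit of NF-kB for removal, and CCDC167 had log2 differences of 1.14, 0.90, 0.95 and 1.22. In all of these pig 2 had the lowest level among the libraries with both agents.

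All 12 lower genes had groups that did not overlap, where 4.88% of all genes lay below in this way. They were chosen by a small p and a shared direction in all pigs, so this describes them only. FLI1, an ETS-family transcription factor of blood cells (gene ID 100515914, chromosome 9, 55612905 to 55749784), had the smallest unadjusted p of this direction. It had 18.7, 17.9 and 19.0 CPM with both agents and 36.9, 28.6 and 43.7 CPM with poly I:C, a log2 difference of -0.97 ± 0.20. GAB3, an adaptor downstream of the macrophage growth factor receptor, had 2.95, 5.15 and 3.96 CPM with both agents and 9.53, 7.13 and 11.11 CPM with poly I:C. PRKCD, a protein kinase C, had 45.1, 60.8 and 45.1 CPM with both agents and 83.7, 72.6 and 93.9 CPM with poly I:C. ADCY7, an adenylate cyclase of immune cells, had 13.7, 22.9 and 12.2 CPM with both agents and 28.5, 29.6 and 41.5 CPM with poly I:C. WNT9A, a secreted Wnt ligand, had 1.47, 3.21 and 3.04 CPM with both agents and 6.04, 5.62 and 9.35 CPM with poly I:C. Pig 2 was again nearest to its poly I:C counterpart in GAB3, ADCY7 and PRKCD.

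TLR7, given above, was also among the 12. Others were the kinase MAST3, the Rab exchange factor DENND4B, the phosphoinositide adaptor DAPP1, the hedgehog pathway kinesin KIF7 and the ubiquitin ligase adaptor KLHL42. Their log2 differences were -1.09 for MAST3, -0.89 for DENND4B, -0.75 for DAPP1, -0.86 for KIF7 and -1.10 for KLHL42.

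**Figure D2:**
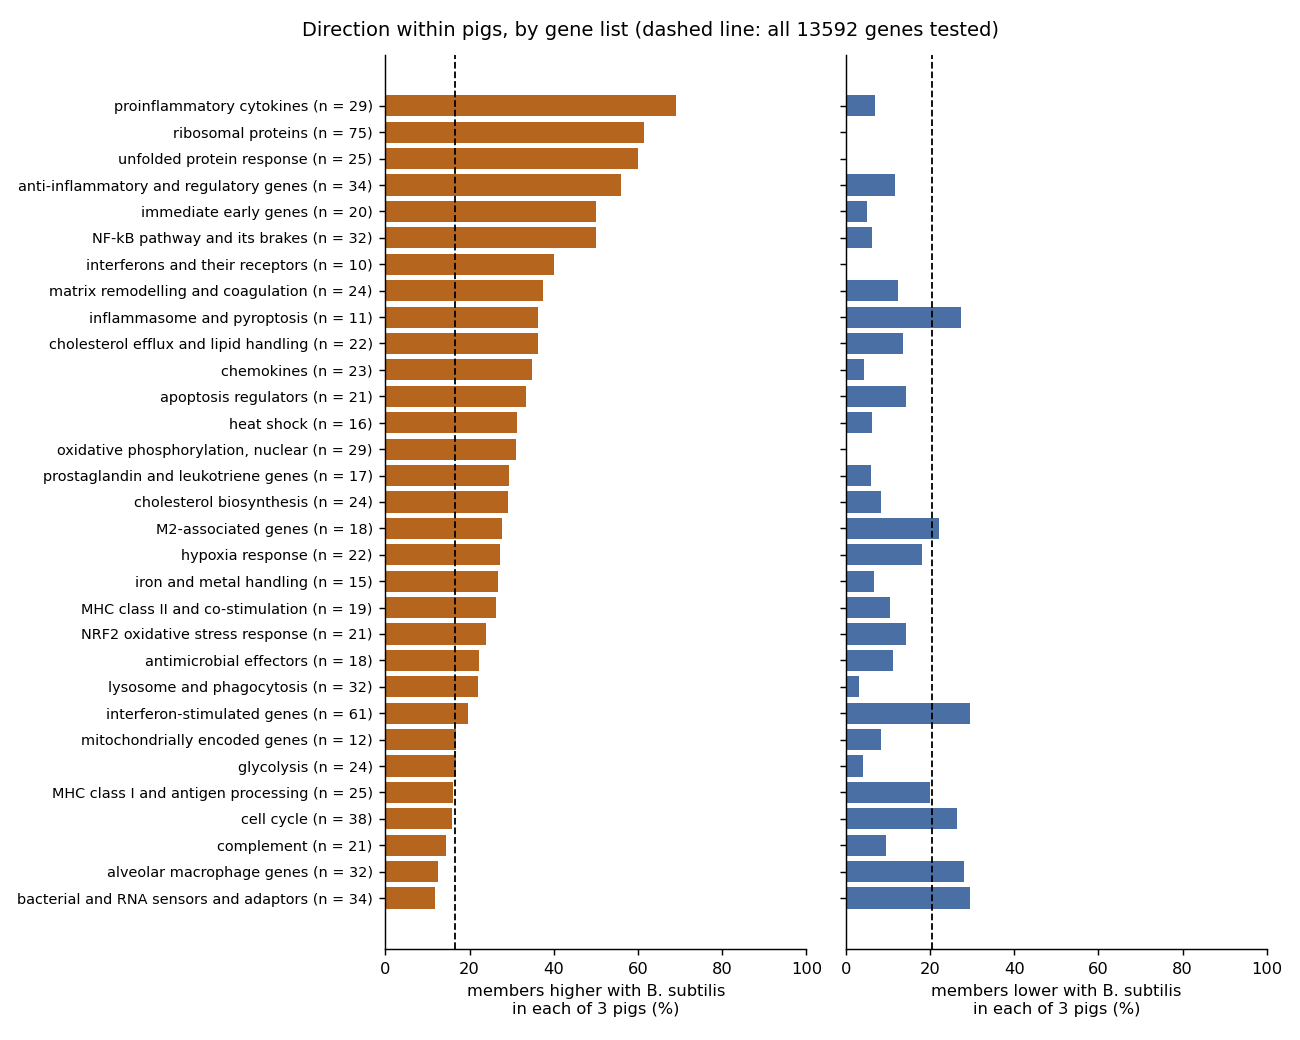
Share of each list's tested members, in percent, that were higher (left panel) or lower (right panel) with B. subtilis and poly I:C than with poly I:C in each of the 3 pigs; dashed lines mark the shares over all 13592 genes, 16.5% and 20.4%. Proinflammatory cytokines (69%), ribosomal proteins (61.3%) and unfolded protein response genes (60%) have high shares in the left panel.

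Genes of housekeeping machinery also lay above their poly I:C levels, in pigs 1 and 3. Of 75 ribosomal protein genes, 46 were higher in each pig and 0 lower in each (all genes: 16.5% and 20.4%). The median log2 difference was 0.87, and within pigs 1, 2 and 3 it was 0.90, 0.02 and 1.47. With library totals alone 8 were higher and 0 lower in each pig (all genes: 5.96% and 39.7%), with a median of 0.56. RPLP2, a protein of the ribosomal stalk with the highest log2 difference in the list, had 1412, 339 and 909 CPM with both agents and 542, 315 and 251 CPM with poly I:C. All ribosomal protein genes together held 4.66, 2.13 and 3.51% of the counts with both agents, against 3.17, 2.25 and 1.71% with poly I:C. The libraries of pig 2 were thus level, and the pig 1 library with poly I:C stood above the pig 2 library with both agents. Nuclear genes of oxidative phosphorylation had medians of 0.51, -0.02 and 1.00 within pigs 1, 2 and 3, and 9 of 29 were higher and 0 lower in each, but 1 and 3 with library totals alone.

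**Figure D3:**
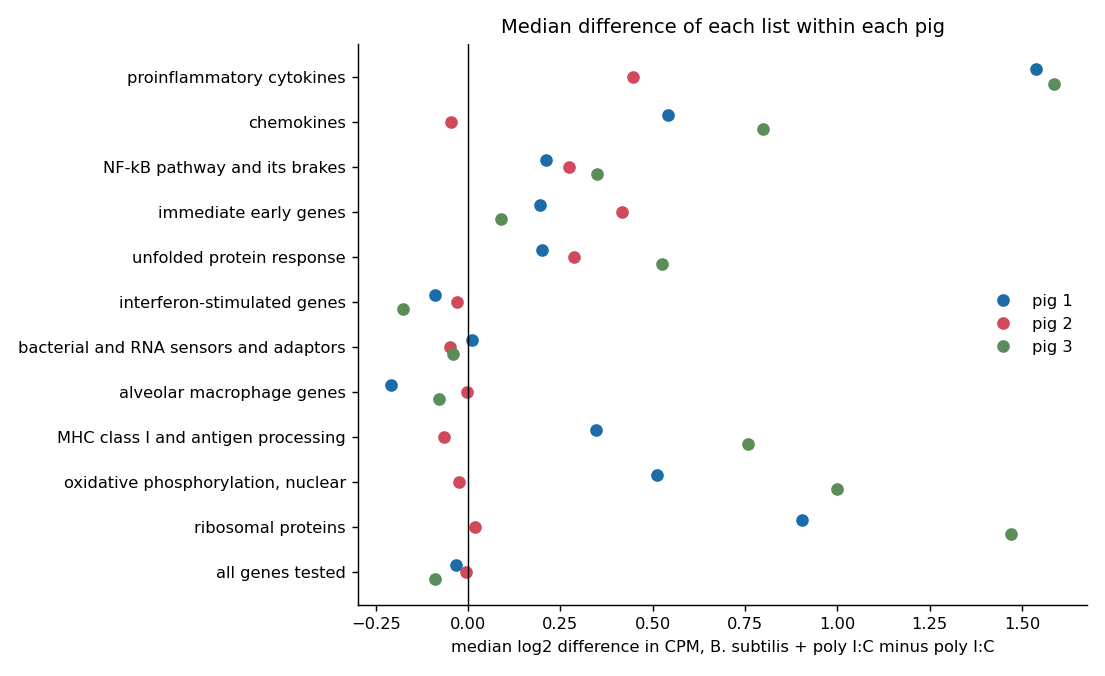
Median log2 difference in CPM of each list (B. subtilis and poly I:C minus poly I:C) within pig 1, pig 2 and pig 3, 1 point per pig; the vertical line marks no difference. Cytokines are above 0 in all pigs, NF-kB, immediate early and unfolded protein response genes have pig 2 among or above the others, and ribosomal and oxidative phosphorylation genes have pig 2 at about 0.

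The difference also moved with the length of the gene. Over 5 equal groups of genes ordered by genomic span, the median log2 difference was 0.25 for genes of up to 7.35 kb, then 0.07, -0.03, -0.15, and -0.21 for genes of 74.7 kb or more. Within pig 1 the shortest group had a median of 0.29 and the longest of -0.26, and within pig 3 these were 0.42 and -0.53. Within pig 2 they were -0.05 and 0.06. The part of gene span in these results was not tested. Genes encoded by mitochondria took 0.514 to 0.798% of counts with both agents, against 0.596 to 1.02% with poly I:C.

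**Figure D4:**
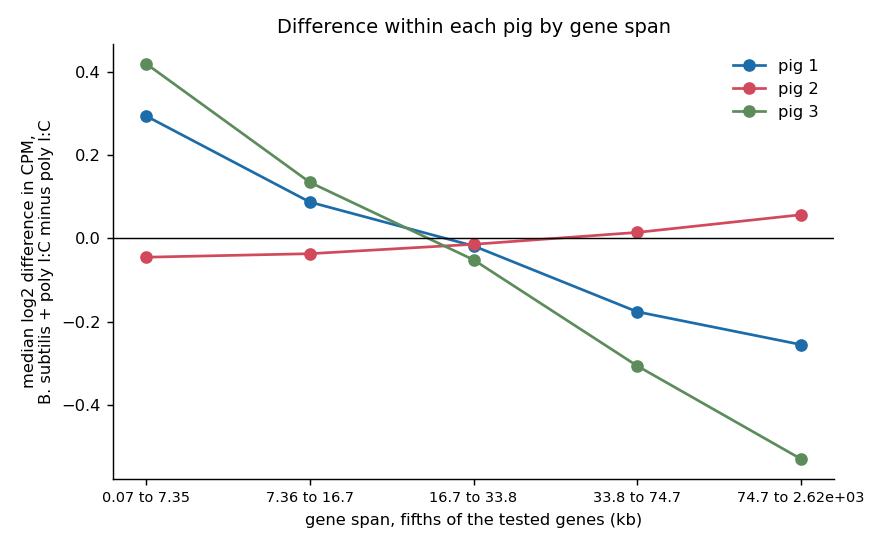
Median log2 difference in CPM (B. subtilis and poly I:C minus poly I:C) of genes in 5 groups of equal number ordered by genomic span in kb, with 1 line per pig. The lines of pigs 1 and 3 slope downward from the shortest genes to the longest, and the line of pig 2 stays between -0.05 and 0.06.

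Macrophage identity and mediator genes showed mixed directions. Of 32 tested alveolar macrophage genes, 4 were higher and 9 lower in each pig (12.5% and 28.1%), beside 16.5% and 20.4% of all genes. Their median log2 difference was -0.06. The growth factor receptor CSF1R had 321, 181 and 244 CPM with both agents and 337, 191 and 283 CPM with poly I:C, and the mannose receptor MRC1 had 292, 636 and 202 CPM with both agents and 393, 598 and 395 CPM with poly I:C. IDO1, which breaks down tryptophan, had 4408, 4365 and 8009 CPM with both agents and 3323, 3900.4 and 4444 CPM with poly I:C, higher in each pig. ACOD1, which makes itaconate, had 3728, 2369.8 and 2999 CPM with both agents and 3081, 2451 and 2298 CPM with poly I:C. NOS2, the inducible nitric oxide synthase, had 2.49, 1.36 and 19.0 CPM with both agents and 1.28, 1.30 and 6.997 CPM with poly I:C, with most of it in pig 3. The prostaglandin synthase PTGS2 had 225, 972 and 422 CPM with both agents and 198, 676 and 414 CPM with poly I:C. None of these was apart between groups.

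Most other lists lay nearer the shares of all genes (16.5% higher and 20.4% lower in each pig), and their balance depended on the scaling. For MHC class I with antigen processing, 4 of 25 genes were higher and 5 lower in each pig, and of 19 of MHC class II and co-stimulation 5 were higher and 2 lower. Lysosomal and phagocytic genes counted 7 higher and 1 lower among 32, glycolysis 4 and 1 among 24, cholesterol synthesis 7 and 2 among 24, and the cell cycle 6 and 10 among 38. With library totals alone 5.96% of all genes were higher and 39.7% lower in each pig, and lower genes outnumbered higher ones in these lists too. The higher and lower genes were then 2 and 8 for MHC class I, 1 and 6 for MHC class II, and 1 and 10 for lysosomal genes. They were 0 and 10 for glycolysis, 3 and 9 for cholesterol synthesis, and 4 and 16 for the cell cycle. Of 24 genes of matrix remodelling and coagulation, 9 were higher and 3 lower (8 and 6 with library totals alone), and of 11 inflammasome genes 4 were higher and 3 lower (2 and 5). Mitochondrially encoded genes had a median log2 difference of -0.22, and 2 of 12 were higher and 1 lower in each pig (0 and 8 with library totals alone).

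Outside the panel, 2 genes chosen after their values were seen had differences of over 4-fold. RETN, which encodes resistin, had 23.7, 6.47 and 12.3 CPM with both agents and 2.89, 3.67 and 1.57 CPM with poly I:C (log2 difference 2.38 ± 0.69, adjusted p 0.447, edgeR). TIMP1, an inhibitor of matrix proteases, had 818, 58.9 and 766 CPM with both agents and 197, 55.9 and 148 CPM with poly I:C (2.04 ± 0.86, adjusted p 0.447, edgeR). RETN was apart between the groups. TIMP1 was not, since pig 2 with both agents lay below pigs 1 and 3 with poly I:C. Without that library both passed, RETN with a log2 difference of 2.73 (adjusted p 0.0193, edgeR) and TIMP1 with 2.57 (adjusted p 0.0322, edgeR). Without both libraries of pig 2, RETN passed with 2.99 (adjusted p 0.0482, edgeR) and TIMP1 did not pass.

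Markers of other cells were present at differing levels. The 17 neutrophil and mast cell markers summed to 9121, 5581 and 3544 CPM with both agents and to 3659, 5933 and 1239 CPM with poly I:C, and MPO, MMP8 and CPA3 were at 0 in all 6 libraries. The 23 markers of T, NK and B cells summed to 985, 1911 and 2126 CPM with both agents and to 947, 2069 and 1271 CPM with poly I:C. The 19 epithelial markers summed to 69.9, 348 and 100.3 CPM with both agents and to 45.8, 236 and 43.2 CPM with poly I:C, and EPCAM made up most of these sums. Markers of endothelium and fibroblasts summed to under 10 CPM in every library, with CDH5, CLDN5 and COL3A1 at 0. The 19 markers of monocytes and dendritic cells summed to 6359, 3732 and 3638 CPM with both agents and to 5103, 3680 and 2298 CPM with poly I:C. The 5 erythrocyte genes summed to 4.33, 22.8 and 19.2 CPM with both agents and to 1.54, 10.8 and 4.65 CPM with poly I:C. Pigs 1 and 3 thus had higher sums with both agents for 5 of these 6 marker lists. Their part in the cytokine results was not tested.

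Without the pig 2 library of the group with both agents, the named genes divided. All 24 genes of the ranking passed an adjusted p of 0.05, and 23 of 24 did without both libraries of pig 2; these genes were chosen by the same contrast, so the count describes them only. Among the 29 cytokines 1 passed in either case, as higher. Of all genes, 6.6% were called higher without the single library and 1.91% without both. The cytokine was EBI3, with a log2 difference of 2.28 and an adjusted p of 0.00851 (edgeR) without the single library, and of 2.33 and 0.0314 without both. TNF and IL23A did not pass in either case, with adjusted p of 0.152 and 0.178 without the single library. Among the 23 chemokines, 2 passed as higher without the single library and 1 without both, beside the same shares of all genes. PPBP, a platelet-type neutrophil attractant, passed in both cases (edgeR adjusted p 0.0106 without the single library and 0.0407 without both). CCL5 passed without the single library (log2 difference 1.80, edgeR adjusted p 0.0247), and CCL20 passed in neither (edgeR adjusted p 0.139 without the single library).

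Of the 75 ribosomal protein genes 65 were called higher without the single library and 22 without both, against 6.6% and 1.91% of all genes called higher. The shares of all genes called lower were 8.48% and 3.98%. Oxidative phosphorylation had 14 and 5 of 29 called higher. In the NF-kB list, TNIP2, NFKBIB and BCL2A1 passed as higher and CHUK as lower in both cases, and NFKB2, NFKBIE and TRAF1 also passed as higher without the single library. In the sensor list 3 of 34 genes passed as lower without the single library and 2 without both, beside 8.48% and 3.98% of all genes. These were TLR7 and MYD88 in both cases, and TLR3 without the single library. In the unfolded protein response list SDF2L1, CRELD2 and MANF passed as higher in both cases, and without the single library DNAJB11 also passed as higher and ERN1 as lower (log2 difference -1.35, adjusted p 0.0281, edgeR). The medians of the NF-kB and unfolded protein response lists were 0.12 and 0.14 without the single library, against 0.26 and 0.32 with all libraries. Of the 34 regulatory genes, IL13RA1 and ZFP36L2 passed as lower in both cases, and without the single library PDCD1LG2 as lower and SIGIRR as higher. Of the immediate early genes, PLAUR passed as higher and JUN as lower without the single library, and 0 passed without both. The interferon receptor chain IFNAR1 passed as lower in both cases, and without the single library JAK1 as lower and IFNG as higher. Of the 25 genes of the MHC class I list, 7 passed as higher and 2 as lower without the single library, and 1 as higher without both. Of the interferon-stimulated genes 0 passed without both libraries, and 1 higher and 2 lower without the single one. The libraries left were 2 with both agents against 3 with poly I:C, or 2 against 2.

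The series also shows what B. subtilis did without poly I:C, and the change it made with poly I:C minus the change it made without was tested as an interaction. This test called 5 genes (0.0368% of those tested; 1216 genes, or 8.95%, at an unadjusted p under 0.05), 1 with a positive sign (0.00736%) and 4 with a negative one (0.0294%). None of the 5 passed the test of B. subtilis with poly I:C against poly I:C. SH2D1B, an adaptor of SLAM-family receptors, had 15.3, 20.5 and 19.3 CPM with both agents and 20.9, 23.4 and 28.4 CPM with poly I:C, and 44.1, 78.2 and 72.0 CPM with B. subtilis and 11.13, 12.7 and 10.03 CPM in control. The interaction was -2.92 ± 0.40 on the log2 scale (adjusted p 0.033, edgeR). VDR, the vitamin D receptor, had 51.0, 71.7 and 54.1 CPM with both agents and 35.8, 64.1 and 46.2 CPM with poly I:C, and 135, 153 and 95.3 CPM with B. subtilis and 14.6, 20.7 and 15.1 CPM in control, an interaction of -2.65 ± 0.42 (adjusted p 0.0456, edgeR). Both genes were thus several-fold above control with the bacterium alone, and close to the poly I:C level when it was added to poly I:C. FAM105A went the other way, with 1.66, 1.51 and 1.60 CPM with both agents and 1.21, 1.51 and 1.96 CPM with poly I:C, and 2.24, 2.93 and 3.35 CPM with B. subtilis and 18.1, 11.7 and 20.9 CPM in control. The kinase gene IKBKE and LOC100626929 were the other 2. None of the 5 passed when the pig number was a block in the fit or when any pig was left out.

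For cytokine genes, the fold change on adding B. subtilis was smaller with poly I:C than without, though none passed this test. The test compares ratios, and TNF and IL23A were scarce in control. In mean CPM, TNF went from 1361 to 4891 with poly I:C present, and from 20.4 to 1237 without it, a larger step with poly I:C. IL23A went from 331 to 1226 with poly I:C present, and from 1.79 to 938 without it. The list's median interaction was -3.31, against -0.02 over all genes, and 0 of 29 passed. TNF had 1377, 1697 and 636 CPM with B. subtilis and 18.8, 19.0 and 23.3 CPM in control, and its interaction was -4.08 ± 1.24 (adjusted p 0.343, edgeR). IL23A had 977, 1113 and 723 CPM with B. subtilis and 2.20, 2.47 and 0.709 CPM in control, and its interaction was -7.14 ± 1.28 (adjusted p 0.0727, edgeR). The libraries with both agents had the highest TNF of these 4 treatments, above B. subtilis alone in all 3 libraries. For IL23A, B. subtilis with and without poly I:C overlapped. The interferon-stimulated list had a median interaction of -0.80, and 0 of 61 passed.

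**Figure D5:**
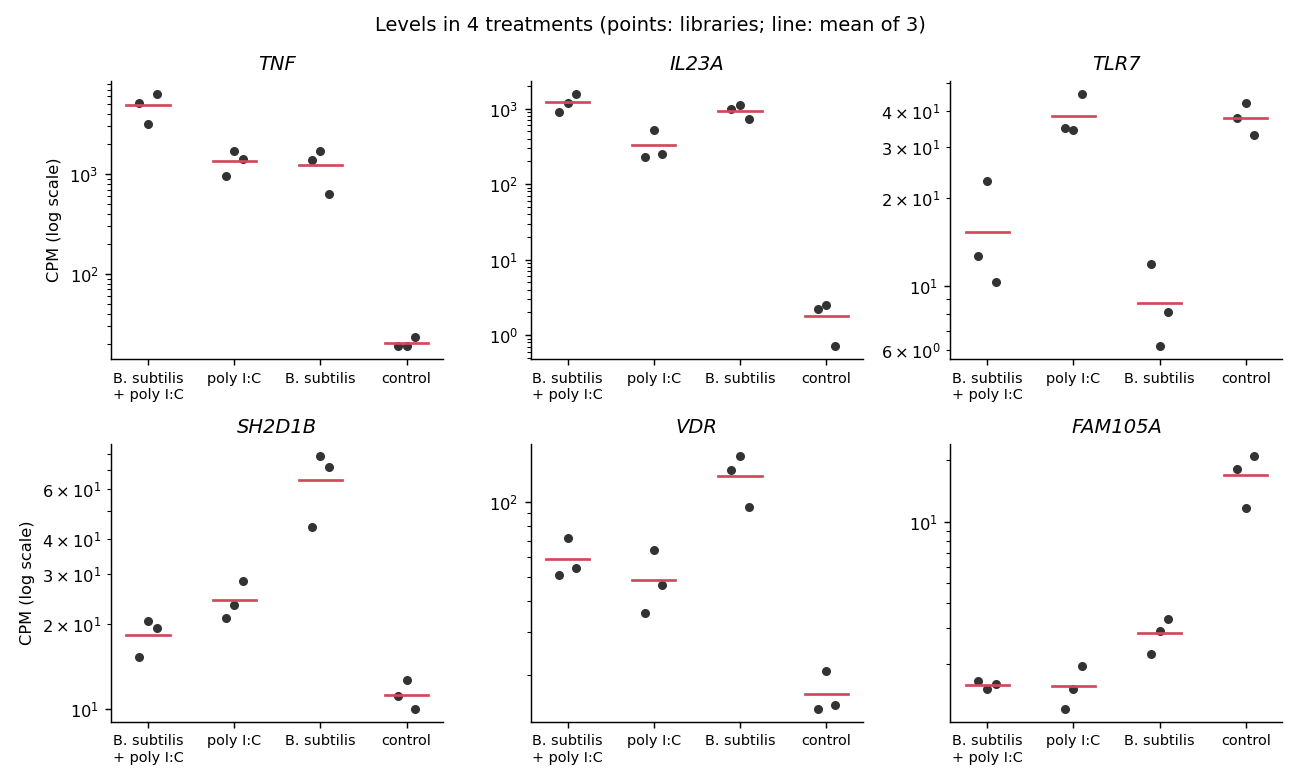
Levels of 6 genes in CPM, on log axes that differ between panels, in cells given B. subtilis with poly I:C, poly I:C, B. subtilis, or nothing; points are libraries and lines the mean of 3. TNF is highest with both agents, TLR7 is low in both treatments with the bacterium, and SH2D1B and VDR are high with B. subtilis alone and close together in the treatments with poly I:C.

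Set against E. faecium with poly I:C, B. subtilis with poly I:C gave 0 genes past the threshold (0%; 2246 genes, or 16.5%, at an unadjusted p under 0.05; smallest adjusted p 0.167). DESeq2 called 488 of 10876 genes in this comparison. The 5 genes with the smallest p were ADCY7, SEC61G, CCDC167, LOC102160096 and CRELD2, and 4 of them are also among the 24 named above. SEC61G had a log2 difference of 1.52 ± 0.30 between the bacteria and ADCY7 of -1.30 ± 0.25. For TNF this difference was 0.96 ± 0.85 and for EBI3 1.96 ± 0.50 (adjusted p 0.594 and 0.167, edgeR). Both comparisons use the same 3 libraries with B. subtilis and poly I:C, so the values are not independent of those above.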

How the data were processed

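RNA-seq counts per gene of pig alveolar macrophages were analysed, from 18 libraries under 6 treatments with 3 pigs each; the deposited table holds whole-number read counts that the authors did not normalize, per the column totals. Per the submitters' processing notes, Sscrofa11.1 and DESeq2 are named; the aligner, the counter, the annotation release and the use of strand are not stated, so counts of genes that overlap each other, antisense ones included, are uncertain. Of 30686 rows, 30335 had an entry in the Sscrofa11.1 table from RefSeq, which gave symbols and positions. There were 0 pairs of identical libraries.

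Counts were tested in R 4.3.3 with edgeR 4.0.16: TMM scaling, filterByExpr with a minimum count of 10 (13592 genes kept), and 1 quasi-likelihood model of all 18 libraries with 1 mean for each treatment and without a block. DESeq2 1.42.0 was an alternative, as were other scalings, no filter, blocks and leaving out libraries. Differences within a pig are log2 differences in CPM with a prior count of 2. The code was tested on simulated data. The pig numbers pair the 6 libraries, since the labels name the same pig: deviations from the group mean correlated across genes by 0.74, 0.68 and 0.48 between libraries of the same pig and by -0.61 to -0.04 otherwise. Subtracting the group mean in part forces negative values between different pigs where those of the same pig are positive. In the other treatments with bacteria, numbers and library similarity did not go together (0 of 3 libraries with B. subtilis, 1 of 3 with E. faecium, 0 of 3 with E. faecium and poly I:C), and grouping by similarity was added as a block after seeing the data. An exact permutation test of 3 against 3 cannot go below 0.1, so single-gene tests rest on the model.

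The members and the 37 gene lists were chosen with earlier results of these data known. Genes named were the 12 in each direction with the highest and lowest change among those past the threshold, filled up by the smallest p where fewer passed (mean of at least 1 CPM, same direction in all pigs, a symbol not starting with LOC), a panel of 47 genes, of which IL1RN was not tested, and the 5 smallest p of each side comparison; other examples are marked. A few genes that the rule names or that met a count are not reported here.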

Additional observations from a re-analysis of the deposited data

Results flagged for a closer look

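For 5 genes, the change on adding B. subtilis differed between cells with and without poly I:C by the interaction test in edgeR, adjusted over 13592 genes. The log2 interaction was -2.92 for SH2D1B, -3.51 for LOC100626929, 2.59 for FAM105A, -2.65 for VDR and -1.46 for IKBKE, with adjusted p of 0.033, 0.0456, 0.0456, 0.0456 and 0.0466. IKBKE, a kinase that activates interferon regulatory factors, had 114, 128 and 116 CPM with both agents and 100.5, 111 and 120.0 CPM with poly I:C, and 135, 132 and 126 CPM with B. subtilis and 39.6, 48.5 and 44.3 CPM in control. LOC100626929 had 4.60, 2.87 and 3.35 CPM with both agents and 3.42, 3.08 and 2.10 CPM with poly I:C, and 3.61, 5.21 and 6.08 CPM with B. subtilis and 0.261, 0.27 and 0.494 CPM in control. Over 10 alternatives SH2D1B passed in 6, LOC100626929 in 5, VDR in 4, and FAM105A and IKBKE in 3 each, with the same sign in all. Their adjusted p reached 0.999916 without pig 3.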

How the results depend on the processing

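For B. subtilis with poly I:C against poly I:C, 0 genes passed under every other scaling, without a filter, with DESeq2, in fits to 6 or 9 libraries and with every block; leaving out libraries gave 0 to 2086 genes, above 0 only where pig 2 was concerned (813 without replicate 2 and 2086 without the combined library of pig 2). With the pig number as a block in 6 libraries, 2027 genes had an unadjusted p under 0.05 and the smallest adjusted p was 0.127; with library sets as a block these were 3195 and 0.0921. The interaction gave 5 genes with TMM, 1 with RLE factors, 2 with library totals alone, 115 with DESeq2, 0 with the pig block, 521 with library sets as a block, and 0 to 0 on leaving out a pig. Against E. faecium with poly I:C the counts were 0 with edgeR, 488 with DESeq2, 1157 with library sets as a block, and 0 to 2249 on leaving out a pig, the highest without pig 2. The cause was not tested. Scaling by library totals alone moved the median log2 difference of all genes to -0.30, against -0.04 with TMM, and list medians with it: to 0.82 for cytokines, 0.24 for chemokines, -0.01 for NF-kB genes, 0.06 for unfolded protein response genes, 0.56 for ribosomal proteins and -0.39 for interferon-stimulated genes; the number of genes lower in each pig was then 5398 and higher 810. Ribosomal protein genes higher in each pig numbered 46 with TMM, 57 with RLE factors, 18 with upper-quartile factors and 8 with totals alone, and cytokines 20, 20, 19 and 17. Of 75 named genes, 56 kept their sign in all 20 alternatives. The filter on low counts left 13592 genes to test, and without it 21492 were tested.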
